A study of Mus musculus with 17 samples.

Results

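The 10 genes described here encode the main cytosolic and mitochondrial heat shock proteins of the mouse: the Hsp70s Hspa1a, Hspa1b and Hspa8, their partners Dnajb1 and Hsph1, the Hsp90s Hsp90aa1 and Hsp90ab1, the small heat shock protein Hspb1, and the mitochondrial chaperonin pair Hspd1 and Hspe1. They were taken by name from 55416 gene lines, and all 10 passed the low count filter that left 18271 genes for testing. RNA was measured by poly(A) RNA-seq in E14Tg2a.4 mouse embryonic stem cells grown in serum with leukemia inhibitory factor. All groups carried Rpl31 with a FLAG-TEV-AviTag in 1 line (Rpl31-FTA) and all received the ALIBi constructs, with which tagged ribosomes at the endoplasmic reticulum (ER) were biotinylated by proximity and affinity purified. Cells had been treated with siRNA against Nmd3, siRNA against Gnl3 or a scramble siRNA. RNA bound to ER ribosomes came from 3 Nmd3, 3 Gnl3 and 2 scramble replicates, and whole-cell RNA of the same lysates from 2 Nmd3, 2 Gnl3 and 3 scramble replicates. These 15 libraries are compared here. The labels mark 2 further whole-cell libraries, Nmd3 replicate 2 and Gnl3 replicate 3, as excluded by the submitters, and a first scramble replicate on ER ribosomes is not analysed here.

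Heat shock proteins keep other proteins folded. Hsp70 binds exposed hydrophobic stretches and releases them in a cycle driven by ATP, started by Hsp40 proteins such as Dnajb1 and reset by nucleotide exchange factors such as Hsph1; Hsp90 takes over late folding steps of kinases and receptors, small heat shock proteins hold unfolded chains, and Hspd1 with its lid Hspe1 folds proteins inside mitochondria. None of the 10 proteins carries an ER signal peptide, and their synthesis is classically assigned to free ribosomes, while Hspa5 and Hsp90b1 are the Hsp70 and Hsp90 of the ER lumen. The inducible genes among them are transcribed by heat shock factor 1, which binds inverted GAA blocks, and mouse embryonic stem cells express several of them without heat. NMD3 is the export adaptor of the large ribosomal subunit, and GNL3 (nucleostemin) is a nucleolar GTPase.

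The start regions of Hspa1a, Hspa1b, Hspb1 and the pair Hspd1 and Hspe1 are shown for these GAA blocks. Promoter windows of 7 of the 10 genes were found in the RefSeq table (GRCm38.p6); Hspa8, Hsp90aa1 and Hsp90ab1 were not among them. The 250 bases before the start are printed 5′ to 3′ on the strand of the gene, and capitals mark each pair of inverted blocks, GAANNTTC or TTCNNGAA, each of which reads the same on both strands.
Hspa1a, chr17:34972157-34972406, minus strand: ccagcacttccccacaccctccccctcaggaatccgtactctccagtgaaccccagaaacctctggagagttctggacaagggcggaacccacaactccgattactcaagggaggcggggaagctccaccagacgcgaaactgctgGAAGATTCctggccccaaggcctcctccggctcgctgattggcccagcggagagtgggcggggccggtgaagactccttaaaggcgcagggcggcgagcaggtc
Hspa1b, chr17:34959239-34959488, minus strand: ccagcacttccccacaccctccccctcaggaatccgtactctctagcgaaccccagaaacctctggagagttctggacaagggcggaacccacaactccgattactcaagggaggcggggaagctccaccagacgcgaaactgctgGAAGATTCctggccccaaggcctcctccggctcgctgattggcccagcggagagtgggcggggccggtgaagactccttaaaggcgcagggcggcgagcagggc
Hspb1, chr5:135887669-135887918, plus strand: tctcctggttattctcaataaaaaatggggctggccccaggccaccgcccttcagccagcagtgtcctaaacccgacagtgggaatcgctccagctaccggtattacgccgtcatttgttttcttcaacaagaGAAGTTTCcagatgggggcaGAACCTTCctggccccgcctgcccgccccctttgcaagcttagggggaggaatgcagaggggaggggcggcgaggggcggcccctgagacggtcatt
The Hspa1a and Hspa1b windows were identical at 247 of 250 bases (98.8%), and each held 1 GAANNTTC pair that ended 96 bases before the start. The Hspb1 window held 2 such pairs, the nearer one 89 bases before the start. Hspd1 and Hspe1 are transcribed away from each other, and the 30 bases between them that hold their blocks are printed on the plus strand, with the run of 4 blocks in capitals.
Hspe1 and Hspd1, chr1:55088053-55088082, plus strand: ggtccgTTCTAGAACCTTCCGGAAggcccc
That run held 3 overlapping pairs and 2 triplets, 3 blocks of alternating direction with 2 bases between neighbours, 71 bases from the Hspe1 start and 126 bases from a Hspd1 start. The window of another Hspd1 start held no pair and no triplet. Hsph1 had 1 TTCNNGAA pair in the windows of both its starts, and Dnajb1 had none in either of its windows. Of 32851 mouse promoter windows of the same length, 12.8% held a pair and 0.466% a triplet. A match describes the letters of the window only.

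Libraries held 15.2 M to 29.9 M gene counts (M for 1000000; median 18.5 M). Both siRNAs lowered their targets. On ER ribosomes Nmd3 stood at 25.2, 24.1 and 25.2 CPM (counts scaled to 1000000 gene counts a library) with Nmd3 siRNA, against 124 and 120.0 CPM after scramble siRNA, a log2 fold change of -2.29 (SE 0.06, edgeR quasi-likelihood adjusted p 2.44e-20). On ER ribosomes Gnl3 stood at 31.6, 26.9 and 29.7 CPM with Gnl3 siRNA, against 170.0 and 177 CPM after scramble siRNA, a log2 fold change of -2.58 (SE 0.24, edgeR adjusted p 0.0092). In whole-cell RNA the log2 fold changes were -1.81 (SE 0.07, edgeR adjusted p 7.97e-19) for Nmd3 and -2.10 (SE 0.08, edgeR adjusted p 5.5e-13) for Gnl3. Transcripts of the mitochondrial genome made up 0.0204% to 0.0239% of the counts on ER ribosomes and 1.15% to 2.03% in whole-cell RNA. The 8 pluripotent stem cell markers summed to 8830 to 9863 CPM on ER ribosomes and 6237 to 7148 CPM in whole-cell RNA, while 6 fibroblast and feeder markers summed to 4.39 to 7.42 CPM and 2.41 to 4.93 CPM, with Postn and Lum at 0 in 13 of the 15 libraries and Dcn in 11. The 5 primitive endoderm markers summed to 7.09 to 9.00 CPM on ER ribosomes and 7.76 to 10.2 CPM in whole-cell RNA, and 6 neural and mesoderm markers to 36.6 to 48.1 CPM and 55.4 to 64.5 CPM. CPM are shares of a library, so a change of a gene and an opposite change of the sum of all others cannot be told apart.

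Together the 10 genes took 1.47% to 1.54% of the counts on ER ribosomes and 1.54% to 1.59% in whole-cell RNA. The Hsp90s were the most abundant, and the stress-inducible Hsp70s were at the bottom. Per kilobase of annotated exon, Hsp90ab1, the constitutive cytosolic Hsp90, was highest at 1905 ± 19.3 CPM per kb on scramble ER ribosomes and 1900 ± 7.57 CPM per kb in scramble whole-cell RNA (SD, n = 2 and 3 here and in the values per kb that follow). Hsp90aa1, the inducible Hsp90, came next at 923 ± 12.9 and 1242 ± 13.4 CPM per kb. On scramble ER ribosomes Hspa8 (579 ± 10.5), Hspd1 (537 ± 13.5), Hspb1 (530.3 ± 5.26) and Hspe1 (502 ± 20.7) lay within a narrow band of CPM per kb, in which Hspd1 and Hspb1, and Hspb1 and Hspe1, were no further apart than 2 SD of the more variable gene. In scramble whole-cell RNA Hspa8 (549.9 ± 16.5) and Hspd1 (548 ± 13.7) were within 1 SD of each other, and Hspb1 (366 ± 3.41) and Hspe1 (333 ± 13) stood below them. Hsph1 and Dnajb1 were more than an order of magnitude lower, at 25.1 ± 0.50 and 26.4 ± 0.46 CPM per kb on ER ribosomes. In whole-cell RNA they had 33.3 ± 1.1 and 21.7 ± 0.49 CPM per kb. Their order thus differed between the fractions per kb of annotated exon but not in CPM. The mean scramble CPM of Hsph1 was 182 on ER ribosomes and 242 in whole-cell RNA, against 84.6 and 69.4 for Dnajb1. Hspa1b had 6.45 ± 0.66 and 4.55 ± 0.11 CPM per kb, and Hspa1a 2.30 ± 0.30 and 1.69 ± 0.18. On ER ribosomes Hspb1 and Hspa8 were not separated by this measure in the knockdowns, and their ranges overlapped in both. Hspb1 had 597 ± 28.2 and Hspa8 585 ± 11.9 CPM per kb after Nmd3 siRNA (SD, n = 3 each). After Gnl3 siRNA they had 651 ± 26.0 and 618 ± 20.1 CPM per kb (SD, n = 3 each). The values rest on exons of every annotated transcript, which for Hspa8 come to 4301 bases with a coding sequence of 1938 bases.

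**Figure D1:**
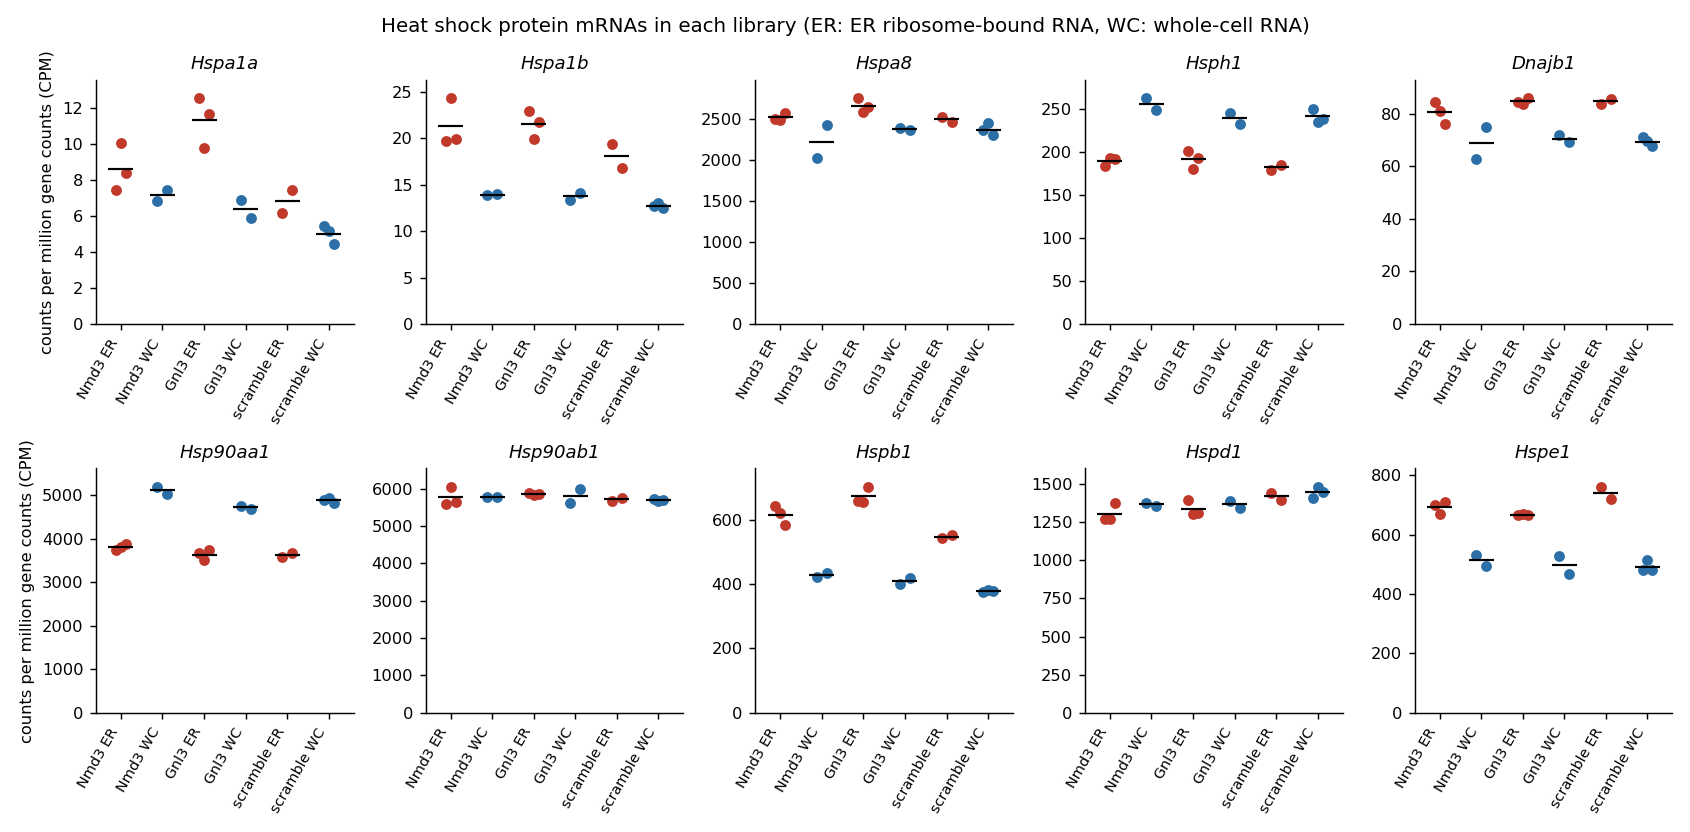
Level of each of the 10 genes in each of the 15 libraries, in CPM, with points for libraries (red for ER ribosome-bound RNA, blue for whole-cell RNA) and a bar for the group mean. Hsp90aa1 and Hsph1 are lower on ER ribosomes under every siRNA, Hspb1 and Hspe1 are higher, and Hsp90ab1 and Hspd1 are at like levels in both fractions.

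The first comparison asked how the mRNAs on ER ribosomes differed from those of the whole cell. In scramble cells 7 of the 10 genes passed the test, 5 higher on ER ribosomes (Hspe1, Hspb1, Hspa1b, Hspa1a, Dnajb1) and 2 lower (Hsp90aa1, Hsph1), where 50.3% of all genes tested passed, 25.1% higher and 25.3% lower. After Nmd3 siRNA 5 genes were higher and 2 lower, beside 50.1% of all genes (24.5% higher, 25.6% lower), and after Gnl3 siRNA again 5 and 2, beside 48.1% (23.3% higher, 24.9% lower). The median log2 fold change of the 10 genes was 0.19 after Nmd3 siRNA, 0.17 after Gnl3 siRNA and 0.16 after scramble siRNA, beside 0.01, 0.02 and 0.02 over all genes tested. About every other gene tested differed between the fractions, and the size and direction of each heat shock gene say more than the count. The share of all genes whose groups of libraries did not overlap was not counted, here or in the siRNA comparisons below.

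Among the Hsp70s, inducible Hspa1b was higher on ER ribosomes under each siRNA, inducible Hspa1a under Gnl3 and scramble siRNA, and constitutive Hspa8 under Nmd3 siRNA by a smaller amount. Hspa1b (ENSMUSG00000090877.4, chromosome 17, 1 exon) had 19.4 and 16.8 CPM on scramble ER ribosomes, against 12.7, 13.1 and 12.5 CPM in scramble whole-cell RNA. After Nmd3 siRNA it had 19.7, 24.3 and 19.9 CPM on ER ribosomes, against 13.9 and 13.98 CPM in whole-cell RNA, and after Gnl3 siRNA 22.9, 19.9 and 21.7 CPM, against 13.4 and 14.1 CPM. Every ER library was above every whole-cell library. The log2 fold changes were 0.61 (SE 0.12, edgeR adjusted p 3.3e-05) after Nmd3 siRNA, 0.60 (SE 0.12, edgeR adjusted p 4.16e-05) after Gnl3 siRNA and 0.48 (SE 0.11, edgeR adjusted p 0.000647) in scramble cells, where leaving out ER replicate 2 gave an adjusted p of 0.0519.

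Hspa1a (ENSMUSG00000091971.4, chromosome 17, 1 exon) codes for a nearly identical Hsp70 and was rarer, with 87 to 292 counts a library. On ER ribosomes it had 12.6, 9.76 and 11.7 CPM after Gnl3 siRNA, against 6.91 and 5.89 CPM in whole-cell RNA, groups that did not overlap (log2 fold change 0.78, SE 0.16, edgeR adjusted p 0.000119). After Nmd3 siRNA it had 7.45, 10.1 and 8.41 CPM, against 6.87 and 7.44 CPM, and did not pass the test (log2 fold change 0.27, SE 0.16, edgeR adjusted p 0.179). In scramble cells it had 6.21 and 7.46 CPM, against 5.46, 5.16 and 4.44 CPM (log2 fold change 0.43, SE 0.17, edgeR adjusted p 0.0358). That scramble call was lost in 5 of 11 alternatives on the 15 libraries, with an adjusted p of 0.0653 in DESeq2 and 0.0513 without the low count filter, and 0.34, 0.0502 and 0.171 without scramble ER replicate 3, whole-cell replicate 2 and whole-cell replicate 3. Of the 150-base windows of the transcripts, 39.7% in Hspa1a and 40.5% in Hspa1b also occur elsewhere, mostly in each other. The sequence of such a window alone does not tell the genes apart, and how reads from them were placed was not examined. Hspa1a also overlaps 564 exon bases of Gm20481 on the opposite strand, and the strand setting of the counting is not given in the sources used here.

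Hspa8 (ENSMUSG00000015656.18, chromosome 9, 9 exons), the constitutive Hsc70, had 2521 and 2457 CPM on scramble ER ribosomes, against 2354, 2441 and 2299.9 CPM in scramble whole-cell RNA. It had 2497, 2476 and 2573 CPM on the ER with Nmd3 siRNA, against 2017 and 2418 CPM, and 2751, 2581 and 2641 CPM after Gnl3 siRNA, against 2379.7 and 2361 CPM. The log2 fold changes were 0.17 (SE 0.06, edgeR adjusted p 0.0193) after Nmd3 siRNA, 0.12 (SE 0.06, edgeR adjusted p 0.089) after Gnl3 siRNA and 0.05 (SE 0.06, edgeR adjusted p 0.514) in scramble cells. The call after Nmd3 siRNA was lost without whole-cell replicate 1, the library at 2017 CPM (log2 fold change 0.03, edgeR adjusted p 0.684). It was also lost without ER replicate 3 (0.16, edgeR adjusted p 0.062) and in a fit of the compared libraries alone (0.17, edgeR adjusted p 0.0781). That library also had 1.15% mitochondrial RNA, against 1.86% to 2.03% in the other 6 whole-cell libraries, and the part of this in the result was not tested. After Gnl3 siRNA Hspa8 passed with library totals alone as scaling (0.16, edgeR adjusted p 0.00636), without the low count filter (edgeR adjusted p 0.0256) and in a fit of the compared libraries alone (edgeR adjusted p 0.00336). In Hspa8 55.4% of the 150-base windows recur in other genes, most often in Gm15459.

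The partners of Hsp70 went opposite ways. Dnajb1 (ENSMUSG00000005483.11, chromosome 8, 3 exons), the Hsp40 that delivers substrates to Hsp70, had 83.6 and 85.7 CPM on scramble ER ribosomes, against 70.9, 69.5 and 67.7 CPM in scramble whole-cell RNA. After Nmd3 siRNA it had 84.3, 80.9 and 76.0 CPM, against 62.9 and 75.1 CPM, and after Gnl3 siRNA 84.3, 83.7 and 85.9 CPM, against 71.7 and 69.3 CPM. No group of ER libraries overlapped its whole-cell group. Its log2 fold change was 0.21 (SE 0.07, edgeR adjusted p 0.0135) after Nmd3 siRNA, 0.22 (SE 0.07, edgeR adjusted p 0.00867) after Gnl3 siRNA and 0.26 (SE 0.07, edgeR adjusted p 0.00171) in scramble cells. Without Nmd3 whole-cell replicate 1, in which it had 62.9 CPM, the value after Nmd3 siRNA was 0.07 (edgeR adjusted p 0.511). That call was also lost without Nmd3 ER replicate 1 (0.18, edgeR adjusted p 0.0583) and in a fit of the compared libraries alone (0.21, edgeR adjusted p 0.0873), and the call after Gnl3 siRNA was lost without whole-cell replicate 2 (edgeR adjusted p 0.093). Hsph1 (ENSMUSG00000029657.16, chromosome 5, 19 exons), the Hsp110 that exchanges the nucleotide of Hsp70, had 179.9 and 185 CPM on scramble ER ribosomes, against 251, 235 and 239 CPM in scramble whole-cell RNA. It had 184, 194 and 193 CPM on the ER with Nmd3 siRNA, against 263 and 249 CPM, and 202, 181 and 194 CPM after Gnl3 siRNA, against 246 and 233 CPM. All 8 ER libraries lay below all 7 whole-cell libraries. The log2 fold changes were -0.44 (SE 0.05, edgeR adjusted p 1.41e-08) after Nmd3 siRNA, -0.36 (SE 0.05, edgeR adjusted p 6.95e-07) after Gnl3 siRNA and -0.43 (SE 0.06, edgeR adjusted p 3.04e-08) in scramble cells.

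The 2 cytosolic Hsp90s, which differ in how they are regulated, also differed in place. Hsp90aa1 (ENSMUSG00000021270.14, chromosome 12, 11 exons) had 3592 and 3664 CPM on scramble ER ribosomes, against 4887, 4932 and 4828 CPM in scramble whole-cell RNA. It had 3734, 3822 and 3891 CPM on the ER with Nmd3 siRNA, against 5201 and 5034 CPM, and 3676, 3508 and 3731 CPM after Gnl3 siRNA, against 4763 and 4676 CPM. Again no ER library reached any whole-cell library. The log2 fold changes were -0.43 (SE 0.04, edgeR adjusted p 1.64e-12) after Nmd3 siRNA, -0.42 (SE 0.04, edgeR adjusted p 4.38e-12) after Gnl3 siRNA and -0.45 (SE 0.04, edgeR adjusted p 8.69e-13) in scramble cells. Hsp90ab1 (ENSMUSG00000023944.15, chromosome 17, 11 exons) had 5672 and 5754 CPM on scramble ER ribosomes, against 5725, 5683 and 5690.1 CPM in scramble whole-cell RNA. After Nmd3 siRNA it had 5603, 6059 and 5652 CPM, against 5789.7 and 5774 CPM, and after Gnl3 siRNA 5893, 5837 and 5867 CPM, against 5621 and 5985 CPM. Its groups overlapped under each siRNA, and its log2 fold changes were -0.01 after Nmd3 siRNA (edgeR adjusted p 0.84), -0.03 after Gnl3 siRNA (edgeR adjusted p 0.617) and -0.02 in scramble cells (edgeR adjusted p 0.685). In Hsp90aa1 36.2% of the 150-base windows recur in annotated transcripts of other genes, most often in Gm12346, and in Hsp90ab1, Hsph1 and Dnajb1 none did. The rest of the genome was not searched.

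Hspb1 (ENSMUSG00000004951.11, chromosome 5, 3 exons), the small heat shock protein Hsp25, was higher on ER ribosomes under each siRNA. It had 543 and 551 CPM on scramble ER ribosomes, against 374, 381 and 378 CPM in scramble whole-cell RNA. It had 642, 620.02 and 585 CPM on the ER with Nmd3 siRNA, against 422 and 433 CPM, and 659, 653 and 702 CPM after Gnl3 siRNA, against 399 and 417 CPM. All 8 ER libraries were above all 7 whole-cell libraries. The log2 fold changes were 0.52 (SE 0.05, edgeR adjusted p 5.72e-11) after Nmd3 siRNA, 0.68 (SE 0.05, edgeR adjusted p 7.04e-14) after Gnl3 siRNA and 0.51 (SE 0.05, edgeR adjusted p 4.77e-11) in scramble cells. Of its 150-base windows 53.4% also occur in the pseudogene Hsp25-ps1.

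Of the mitochondrial chaperonin pair, Hspe1 was higher on ER ribosomes and Hspd1 was at like levels in both fractions. Their coding sequences have 306 and 1719 bases. Genes within 25% of these lengths had median log2 fold changes of 0.41 and -0.03 in scramble cells. The part of length in the difference within the pair was not tested. Hspe1 (ENSMUSG00000073676.5, chromosome 1, 4 exons), the lid of the chaperonin chamber, had 762 and 719 CPM on scramble ER ribosomes, against 481, 514 and 479.9 CPM in scramble whole-cell RNA. It had 700.5, 669 and 709.6 CPM on the ER with Nmd3 siRNA, against 530.4 and 495 CPM, and 667, 668 and 665 CPM after Gnl3 siRNA, against 528 and 467 CPM. All ER libraries were above all whole-cell libraries. The log2 fold changes were 0.43 (SE 0.05, edgeR adjusted p 5.45e-09) after Nmd3 siRNA, 0.38 (SE 0.05, edgeR adjusted p 5.79e-08) after Gnl3 siRNA and 0.57 (SE 0.05, edgeR adjusted p 3.76e-12) in scramble cells. Hspd1 (ENSMUSG00000025980.15, chromosome 1, 12 exons), the chamber itself, had 1444 and 1394 CPM on scramble ER ribosomes, against 1412, 1484 and 1449 CPM in scramble whole-cell RNA. After Nmd3 siRNA it had 1270.1, 1272 and 1373 CPM, against 1377 and 1358 CPM, and after Gnl3 siRNA 1397, 1306 and 1313 CPM, against 1387 and 1346 CPM, so the fractions overlapped under each siRNA. Its log2 fold changes of -0.08 after Nmd3 siRNA, -0.07 after Gnl3 siRNA and -0.05 in scramble cells did not pass the test (edgeR adjusted p 0.147, 0.18 and 0.32). The annotated exons of the pair overlap by 112 bases on opposite strands.

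**Figure D2:**
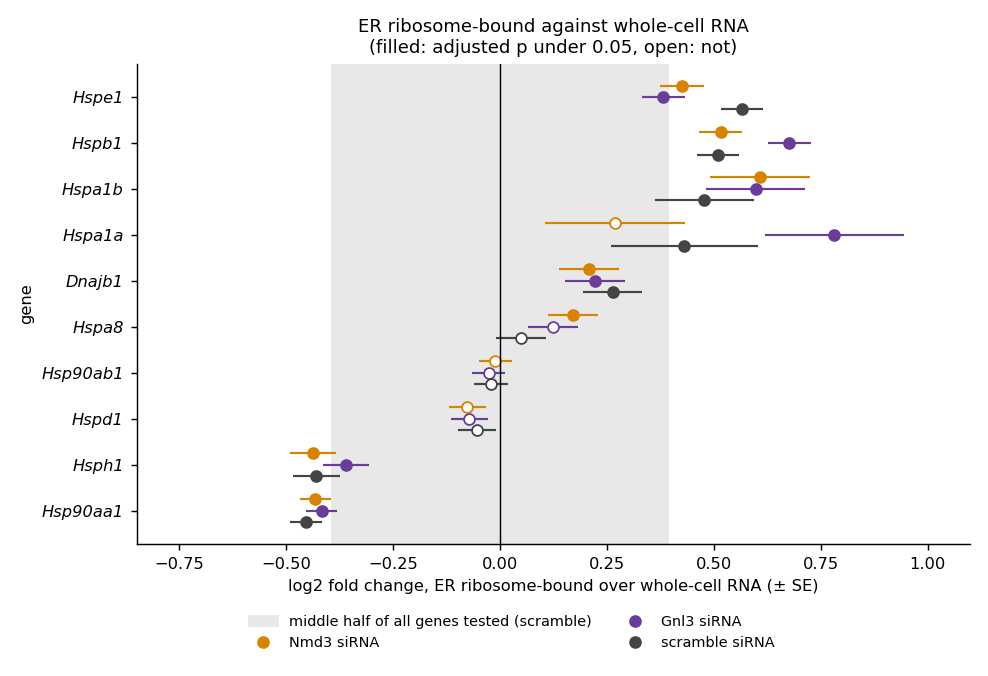
Log2 fold change of ER ribosome-bound over whole-cell RNA for the 10 genes (x axis, with ± SE), 1 point for each siRNA, filled where the edgeR adjusted p was under 0.05, with a grey band for the middle 50% of all genes tested in scramble cells. Hspe1, Hspb1 and Hspa1b lie right of the line at 0 and Hsp90aa1 and Hsph1 left of it under all 3 siRNAs.

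Coding length moved with the difference between fractions over all genes, and it ranged from 306 bases in Hspe1 to 2574 bases in Hsph1. The median log2 fold change of ER ribosomes over whole-cell RNA in scramble cells was 0.46 for genes with a coding sequence of up to 300 bases and fell in each longer class to -1.19 above 6000 bases, over the 14276 of 18271 tested genes (78.1%) with a coding length in the annotation. Genes without a coding length were left out, so that course describes only genes with one, as all 10 heat shock genes had. It was not used as a check. Set beside genes within 25% of its length in scramble cells, Hspe1 (306 bases) was 0.15 above their median of 0.41, and Hspb1 (627 bases) was 0.18 above 0.33. Hspa1a (1923 bases) was 0.53 above a median of -0.09 and Hspa1b (1926 bases) 0.57 above -0.10, higher than 84.1% and 85.8% of the genes of like length. Hspa8 (1938 bases) and Hsp90ab1 (2172 bases), whose CPM in the fractions differed little, were 0.15 and 0.14 above theirs. Hsp90aa1 (2199 bases) was 0.29 below a median of -0.17, and Hsph1 (2574 bases) 0.18 below -0.25. Dnajb1 (1020 bases) differed from its median by 0.06 and Hspd1 (1719 bases) by -0.02. These values are from scramble cells, and each gene kept its direction in both knockdowns, though not always its size. Hspe1 was only 0.04 above its median with Nmd3 siRNA and 0.07 with Gnl3 siRNA. It was higher than 56.4% and 60.5% of genes of like length there, against 68.4% in scramble cells. Hspb1 was 0.22 above its median with Nmd3 siRNA and 0.40 with Gnl3 siRNA, and Hspa1a 0.36 and 0.87. The part of length in the single results was not tested.

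**Figure D3:**
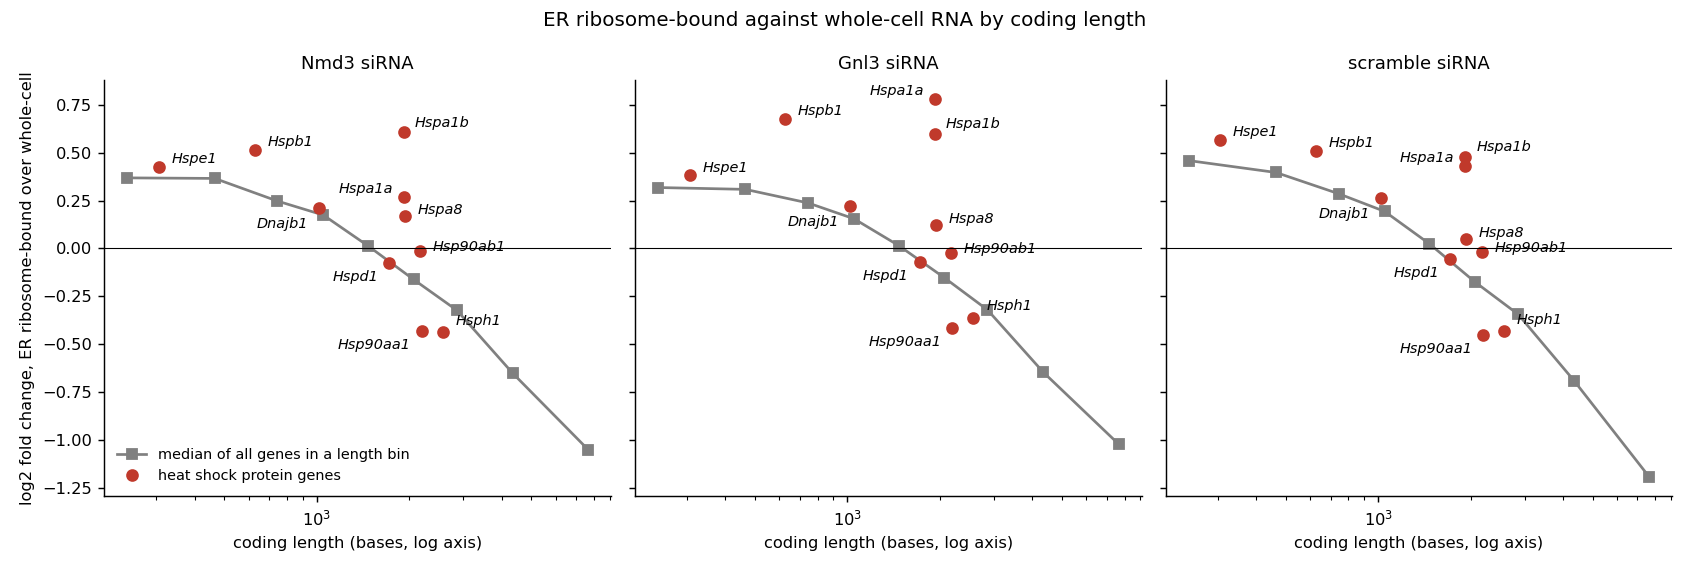
Log2 fold change of ER ribosome-bound over whole-cell RNA (y axis) against coding length in bases (log axis), in a panel for each siRNA, with the 10 genes in red and the median of all genes of a length class in grey. Hspa1a and Hspa1b lie above the grey line and Hsp90aa1 below it in each panel, and Dnajb1 and Hspd1 lie close to it.

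Ratios between relatives within a library need no scaling between libraries. They use the same counts as the tests per gene and so are not separate support. Of all genes tested 48.1% to 50.3% differed between the fractions, and ratios of other gene pairs were not tested. In 7 ratios the ER libraries (n = 8) were compared with the whole-cell libraries (n = 7) by exact two-sided permutation of the fraction within each siRNA, and each gave p = 0.001 (0.001 after Benjamini-Hochberg adjustment over the 7), the smallest that the 1000 arrangements allow. The Hsp70 of the ER lumen stood to that of the cytosol, Hspa5 to Hspa8, at a log2 ratio of -2.04 ± 0.12 on ER ribosomes and -2.59 ± 0.16 in whole-cell RNA (SD, here and below). The corresponding Hsp90 ratio, Hsp90b1 to Hsp90ab1, was -2.62 ± 0.06 and -3.25 ± 0.07. The mitochondrial relatives went the other way: Hspa9 to Hspa8 was -1.72 ± 0.07 on ER ribosomes and -1.26 ± 0.16 in whole-cell RNA, and Trap1 to Hsp90ab1 was -4.97 ± 0.06 and -4.62 ± 0.06. Among the 10 genes, Hsp90aa1 to Hsp90ab1 was -0.65 ± 0.06 on ER ribosomes and -0.23 ± 0.06 in whole-cell RNA, and Hspd1 to Hspe1 was 0.95 ± 0.06 and 1.49 ± 0.08. Hspd1 and Hspe1 differ in coding length (1719 and 306 bases), and its part in their ratio was not tested. Hspa1a and Hspa1b summed to Hspa8 gave -6.44 ± 0.17 on ER ribosomes and -6.91 ± 0.17 in whole-cell RNA, the only ratio of the 7 whose fractions overlapped over all libraries. In each ratio all 6 complete pairs of a lysate changed in 1 direction (exact sign-flip p = 0.03125, the smallest that 6 pairs allow).

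**Figure D4:**
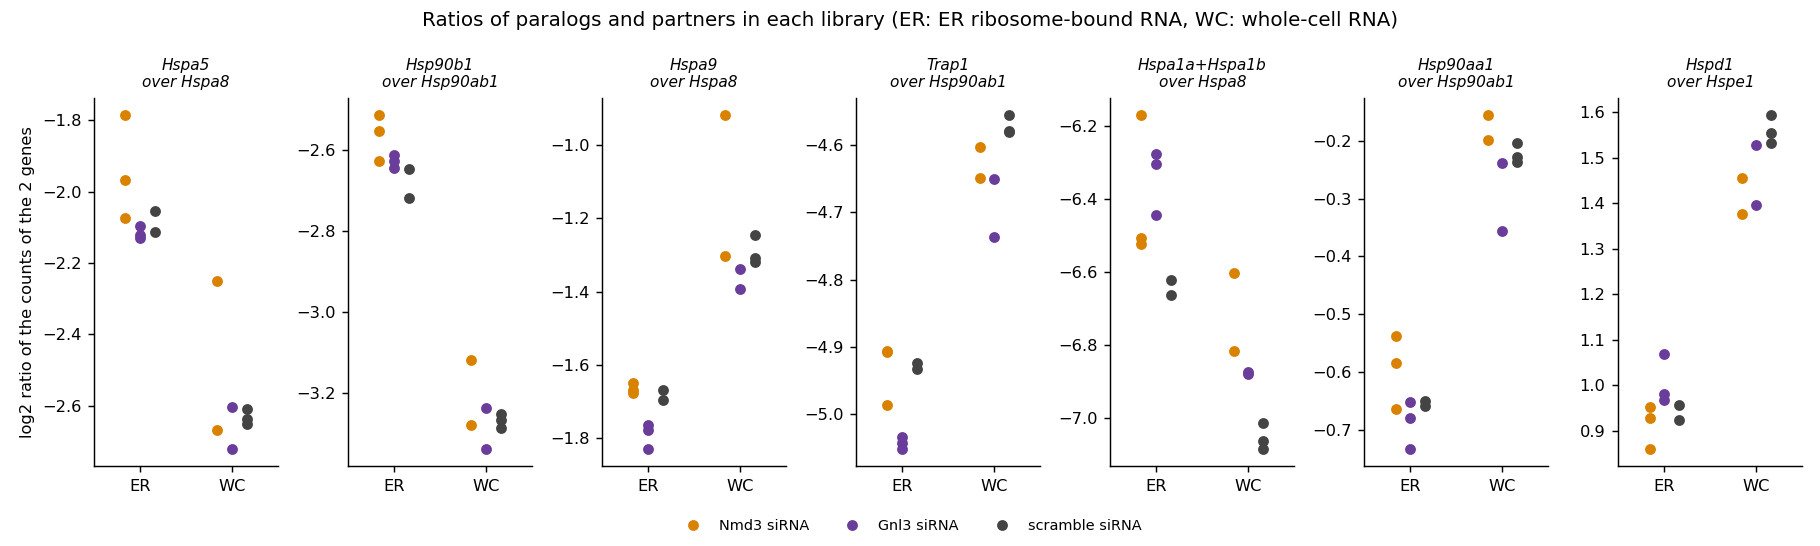
Log2 ratio of the counts of 2 genes in each library (y axis, its own range in each panel), ER ribosome-bound libraries left and whole-cell libraries right in each panel, coloured by siRNA. The fractions separate in 6 of the 7 ratios and overlap for Hspa1a plus Hspa1b over Hspa8.

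All 15 ER chaperones were higher on ER ribosomes under each siRNA, with median log2 fold changes of 1.1 after Nmd3 siRNA, 0.97 after Gnl3 siRNA and 0.95 in scramble cells; Sdf2l1, an ER protein that works with Hsp40s, reached 1.41, 1.37 and 1.33. Hspa5 itself was at 0.70, 0.67 and 0.60 and Hsp90b1 at 0.62, 0.63 and 0.56. The cytosolic Hspa1b (0.61, 0.60 and 0.48) and Hspb1 (0.52, 0.68 and 0.51) had log2 fold changes of like size. Set beside genes of like coding length in scramble cells they differed more. Hspa5 was 0.70 and Hsp90b1 0.78 above the median of such genes, against 0.57 for Hspa1b and 0.18 for Hspb1. The 8 subunits of the cytosolic chaperonin TRiC were lower on ER ribosomes in 7, 5 and 7 cases and higher in none, with Cct6a at -0.42, -0.38 and -0.36 and Cct8 at -0.33, -0.31 and -0.28. Of 26 cytosolic cochaperones 7 were higher and 6 lower after Nmd3 siRNA, 9 and 4 after Gnl3 siRNA and 9 and 4 in scramble cells, where over all genes 24.5%, 23.3% and 25.1% were higher and 25.6%, 24.9% and 25.3% lower; these counts are near that background, the background for the other lists as well. Bag1, a nucleotide exchange factor of Hsp70, was higher (0.34, 0.39 and 0.40), as was Hsbp1, a protein that binds heat shock factor 1 (0.44, 0.36 and 0.55), and Hsf2, a heat shock factor, was lower (-0.25, -0.21 and -0.19). Hsf1, which drives the heat shock genes and was named after its values were seen, did not pass (0.05, -0.02 and 0.05), and of the 6 factors and regulators 1 was higher and 1 lower after Nmd3 siRNA, and 2 and 1 under each of the other two siRNAs. Of 14 other Hsp70 and small heat shock genes 10 were tested, of which 4 were higher and 1 lower after Nmd3 siRNA, 4 and 0 after Gnl3 siRNA and 2 and 0 in scramble cells; Hspb8, a partner of Bag3, was higher at 0.54, 0.48 and 0.43, and the gene that was lower was Hspa1l, a testis Hsp70, at -1.10. The 13 mitochondrial chaperones and proteases were mixed, with 6 higher and 4 lower after Nmd3 siRNA, 6 and 3 after Gnl3 siRNA and 5 and 3 in scramble cells; Hspa9, the Hsp70 of mitochondria, was lower at -0.38, -0.30 and -0.34.

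Whether a knockdown changed the ratio of ER ribosomes to whole-cell RNA was tested as an interaction. Of all genes 0% passed for Nmd3 and 0% for Gnl3 siRNA against scramble in edgeR, so none of the 10 did. At an unadjusted p under 0.05 there were 0 of the 10 for Nmd3 and 2 for Gnl3 siRNA. These were Hspe1, whose ratio was lower by a log2 value of -0.19 (SE 0.07, edgeR unadjusted p 0.0122), and Hspb1, higher by 0.17 (SE 0.07, edgeR unadjusted p 0.022), both with an adjusted p of 0.999. For Nmd3 siRNA Hspe1 was nearest, at -0.14 (SE 0.07, edgeR adjusted p 0.849). In DESeq2 none of the 10 passed in either interaction.

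On ER ribosomes the siRNAs were compared directly. After Gnl3 siRNA 3 of the 10 genes passed the test against scramble siRNA, Hspa1a and Hspb1 higher and Hspe1 lower, where 2.68% of all genes tested passed (1.51% higher, 1.17% lower). Hspa1a had 12.6, 9.76 and 11.7 CPM after Gnl3 siRNA, against 6.21 and 7.46 CPM after scramble siRNA (log2 fold change 0.71, SE 0.16, edgeR adjusted p 0.011). The groups did not overlap, but the call was lost in 3 of 11 alternatives, with log2 fold changes of 0.59 (edgeR adjusted p 0.289) without scramble replicate 2, 0.85 (edgeR adjusted p 0.0634) without scramble replicate 3 and 0.63 (edgeR adjusted p 0.08) without Gnl3 replicate 1. Its near copy Hspa1b did not pass, at 22.9, 19.9 and 21.7 CPM after Gnl3 siRNA against 19.4 and 16.8 CPM (log2 fold change 0.24, edgeR adjusted p 0.337). Hspb1 had 659, 653 and 702 CPM after Gnl3 siRNA, against 543 and 551 CPM after scramble siRNA, again without overlap (log2 fold change 0.29, SE 0.04, edgeR adjusted p 0.000296). It passed in all 11 alternatives, with log2 fold changes of 0.25 to 0.31 and edgeR or DESeq2 adjusted p between 4.78e-09 and 0.0339. Hspe1 had 667, 668 and 665 CPM after Gnl3 siRNA, against 762 and 719 CPM after scramble siRNA (log2 fold change -0.16, SE 0.04, edgeR adjusted p 0.0188). That call was lost without any 1 of the 5 libraries (log2 fold changes -0.11 to -0.21, edgeR adjusted p 0.0573 to 0.526), with a replicate block (-0.16, edgeR adjusted p 0.0739) and in 1 fit of all 15 libraries (-0.16, edgeR adjusted p 0.0778). Of the 8 pluripotent stem cell markers 4 were lower in the same comparison (Nanog -0.25, Dppa5a -0.21, Esrrb -0.20, Zfp42 -0.17), and the list summed to 8830.5 to 9179 CPM after Gnl3 siRNA and 9592 to 9863 CPM after scramble siRNA, with no marker at 0. The neural and mesoderm markers summed to 43.6 to 48.1 CPM after Gnl3 siRNA and 40.4 to 40.7 CPM after scramble siRNA, the primitive endoderm markers to 7.78 to 8.19 and 7.09 to 7.23 CPM, and the fibroblast and feeder markers to 5.38 to 6.43 and 4.49 to 5.50 CPM. The part of these markers in the heat shock results was not tested. In bulk RNA a change in the number of cells that express a gene and a change in the RNA of each cell cannot be told apart.

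After Nmd3 siRNA 1 of the 10 genes passed on ER ribosomes, beside 1.17% of all genes tested (0.652% higher, 0.516% lower). Hspb1 had 642, 620.02 and 585 CPM after Nmd3 siRNA, against 543 and 551 CPM after scramble siRNA (log2 fold change 0.18, SE 0.04, edgeR adjusted p 0.0433). The groups did not overlap, and the call was lost in 7 of 11 alternatives, with an adjusted p of 0.103 in DESeq2, 0.152 with a replicate block, and in edgeR 0.457, 0.404 and 0.123 without scramble replicate 2, scramble replicate 3 and Nmd3 replicate 1. Hspa1a, with 7.45, 10.1 and 8.41 CPM after Nmd3 siRNA against 6.21 and 7.46 CPM after scramble siRNA, did not pass (log2 fold change 0.36, SE 0.16, edgeR adjusted p 0.391). Hspa1b was at 0.25 (SE 0.11, edgeR adjusted p 0.382), Hsp90aa1 at 0.08, Hspe1 at -0.09 and Hspd1 at -0.11 (edgeR adjusted p 0.197), all short of the threshold. On ER ribosomes the neural and mesoderm markers summed to 36.6 to 37.6 CPM after Nmd3 siRNA and 40.4 to 40.7 CPM after scramble siRNA, the pluripotent stem cell markers to 9310.5 to 9855 and 9592 to 9863 CPM, the primitive endoderm markers to 7.55 to 9.00 and 7.09 to 7.23 CPM, and the fibroblast and feeder markers to 4.39 to 7.42 and 4.49 to 5.50 CPM; their part in the result was not tested. Both comparisons share the scramble libraries, so the like values of Hspb1 in them are not independent.

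The knockdowns set against each other share no library. Of all genes tested on ER ribosomes 2.19% differed between Nmd3 and Gnl3 siRNA (0.987% higher, 1.21% lower), and none of the 10 did in edgeR, with 4 at an unadjusted p under 0.05. Hspa1a was lower after Nmd3 siRNA by a log2 value of -0.36 (edgeR adjusted p 0.209) and Hspb1 by -0.11 (edgeR adjusted p 0.194), while Hsp90aa1 was at 0.09 (edgeR adjusted p 0.142). Nmd3 replicate 2 stood apart from its group: its chi-square per gene was 9.30 to replicate 1 and 11.04 to replicate 3, other ER pairs of a group had up to 3.56, and its Gnl3 level was 263 CPM where the other two had 164 and 179.8 CPM. Without it, Hspa1a (-0.50, edgeR adjusted p 0.0279) and Hspb1 (-0.13, edgeR adjusted p 0.0371) passed, and over all genes 703 passed, against 387 with it. Of the whole-cell libraries used, Nmd3 replicates 1 and 3 had a chi-square per gene of 9.36, and other pairs of a group up to 4.09.

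In whole-cell RNA none of the 10 genes passed in any siRNA comparison in edgeR, where 0.166% of all genes did for Nmd3 against scramble siRNA (0.0629% higher, 0.103% lower), 0.812% for Gnl3 against scramble siRNA (0.515% and 0.297%) and 0.212% for Nmd3 against Gnl3 siRNA (0.103% and 0.109%). At an unadjusted p under 0.05 there were 2, 2 and 0 of the 10, Hspa1a and Hspb1 in both knockdowns. Hspa1a had 6.87 and 7.44 CPM after Nmd3 siRNA and 6.91 and 5.89 CPM after Gnl3 siRNA. After scramble siRNA it had 5.46, 5.16 and 4.44 CPM, below every knockdown library. How many of all genes separate like this in groups of 2 and 3 libraries was not counted. The log2 fold changes of Hspa1a were 0.52 (SE 0.17, edgeR adjusted p 0.278) for Nmd3 and 0.36 (edgeR adjusted p 0.582) for Gnl3 siRNA. Hspb1 had 422 and 433 CPM after Nmd3 siRNA and 399 and 417 CPM after Gnl3 siRNA, against 374, 381 and 378 CPM after scramble siRNA, likewise without overlap (log2 fold changes 0.17 and 0.12, edgeR adjusted p 0.251 and 0.557). Hspa8 after Nmd3 siRNA depended on which whole-cell replicate was used, since without replicate 3 it was lower against scramble siRNA by a log2 value of -0.25 (edgeR adjusted p 0.0021), with replicate 1 alone at 2017 CPM.

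**Figure D5:**
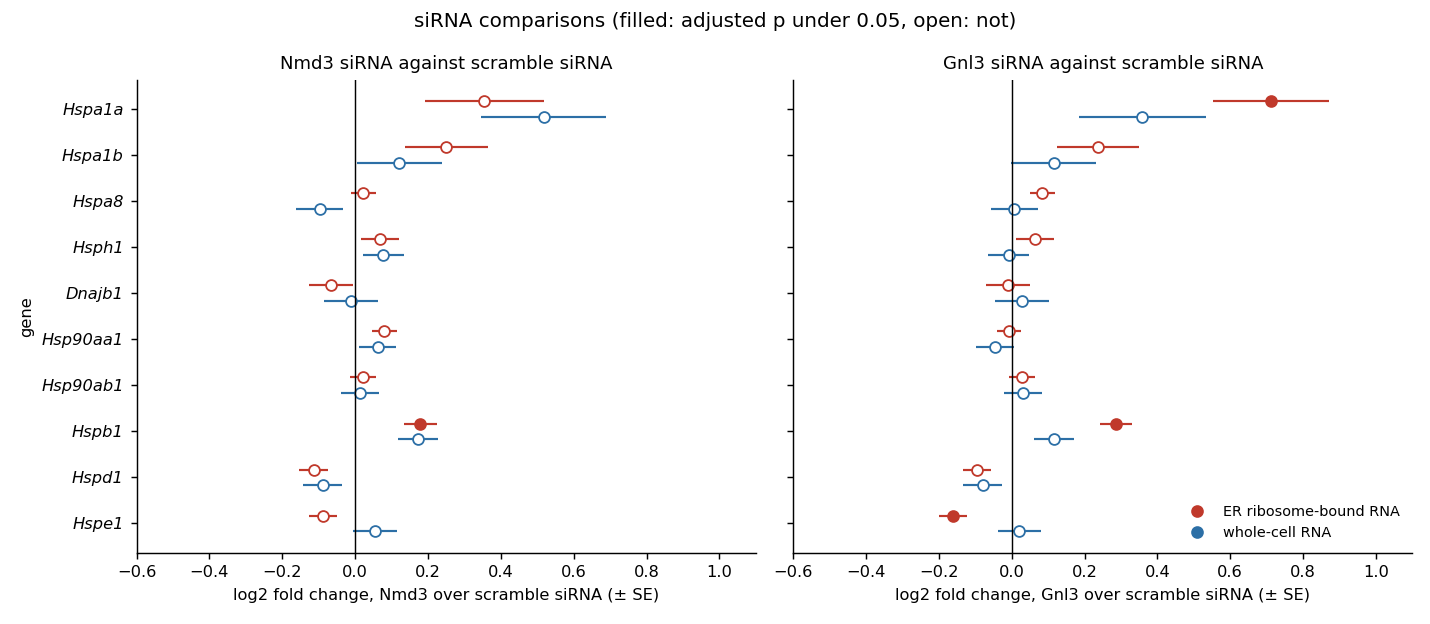
Log2 fold change of each knockdown over scramble siRNA (x axis, with ± SE) for the 10 genes, in red on ER ribosomes and in blue in whole-cell RNA, filled where the edgeR adjusted p was under 0.05. Filled points are Hspb1 in the Nmd3 panel and Hspa1a, Hspb1 and Hspe1 in the Gnl3 panel, all on ER ribosomes.

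Of the other chaperone and regulator lists, 1 gene passed in any siRNA comparison or interaction, Hspb8 on ER ribosomes after Gnl3 siRNA (log2 fold change 0.24, edgeR adjusted p 0.0493). In that comparison 2.68% of all genes tested passed, and the lists had 26, 6, 10, 8, 13 and 15 genes tested. The Hspb8 call was not followed in the alternatives. After removal of the mean of each fraction, levels over the 15 libraries were correlated within the group as a description: Pearson's r was 0.81 for Hspa1a with Hspb1, 0.68 for Hspa1a with Hspa1b and -0.74 for Hspb1 with Hspd1. These points share library depth and siRNA groups. The genes most like Hspa1b over all tested genes were Itga3 (0.93), Atp9b (0.91) and Gm12744 (0.90). Those most like Hspa8 were mt-Nd2 (0.92), mt-Co1 (0.92) and Nono (0.91), 2 of them genes of the mitochondrial genome, whose summed share was lowest, as was Hspa8, among whole-cell libraries in Nmd3 replicate 1. Those most like Hspd1 were Ada, 4833407H14Rik and Tmod2 (0.86 each).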

How the data were processed

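Raw HTSeq counts per gene, deposited by the authors for each library, were used as they are; alignment with STAR 2.7.9a to GRCm39 and counting with HTSeq 0.11.2 are named in the submitters' processing notes, and the annotation release and strand setting are not given in the sources used here. The 5 HTSeq lines that name no gene were left out; reads in no feature were 46.6% to 48.3% of the read total and reads without a unique position 5.11% to 10.2%. Gene IDs were matched to symbols for 52083 of 55416 lines. edgeR 4.0.16 (R 4.3.3) was run with filterByExpr, TMM and robust quasi-likelihood fits: 15 libraries for the fractions and interactions, 8 ER and 7 whole-cell libraries for the siRNAs, in 11 comparisons, with p adjusted (Benjamini-Hochberg) over every gene tested and 0.05 as the threshold. SE is the log2 fold change over the square root of F. DESeq2 1.42.0, library totals alone, no filter, a replicate block, other sets of libraries and leaving out each library were alternatives. The labels call the replicates biological. Fractions of 1 lysate are paired by design (deviations correlated at -0.03 to 0.02), and the block changed no call of the 10 genes between fractions. The steps were run on simulated data, with 1 spread for all genes in the edgeR fits. How well small changes were recovered is not reported here. Named genes were the 10, the relatives in the ratios and, of each other list, genes from among the up to 4 largest changes that passed in a comparison; Hsf1 is an exception. The 10 genes and the lists were chosen with earlier results of these data known.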

Additional observations from a re-analysis of the deposited data

Results flagged for a closer look

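The 2 whole-cell libraries that the labels mark as excluded held 9 values of the 10 genes above every scramble whole-cell library. In Gnl3 whole-cell replicate 3 the CPM were 3366 for Hspa8 (highest scramble value 2441), 275 for Hsph1 (251), 6329 for Hsp90aa1 (4932), 6669 for Hsp90ab1 (5725), 1563 for Hspd1 (1484) and 648 for Hspe1 (514). In Nmd3 whole-cell replicate 2 they were 678 for Hspb1 (highest scramble value 381), 1759 for Hspd1 (1484) and 1324 for Hspe1 (514). The remaining values were below all 7 whole-cell libraries used: Hspa1b had 9.33 and 11.8 CPM, Hspa1a 2.02 and 3.12 CPM and Dnajb1 48.0 and 50.5 CPM in the 2 libraries, and Hspb1 had 258 CPM in Gnl3 replicate 3. Hspa8 (1918.9 CPM), Hsph1 (131 CPM), Hsp90aa1 (4169.8 CPM) and Hsp90ab1 (5043 CPM), above the scramble values in Gnl3 replicate 3, were below in Nmd3 replicate 2. These libraries correlated with the whole-cell libraries used at 0.924 to 0.943 (log2 CPM), against 0.988 to 0.992 among those.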

How the results depend on the processing

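The 10 genes gave 1390 values over all comparisons and alternatives, of which 1338 kept their side of the threshold, 102 of them uncalled values that changed sign, while 43 lost the call, 8 gained one and 1 reversed. With all 17 libraries, 2, 5 and 0 of the 10 genes passed between fractions after Nmd3, Gnl3 and scramble siRNA. In scramble cells the log2 fold changes moved little (Hspb1 0.50, Hspe1 0.56), while after Nmd3 siRNA Hspb1 came to 0.05 (adjusted p 0.928) and Hspe1 reversed to -0.45 (adjusted p 0.442); over all genes 2819, 4540 and 2353 passed for Nmd3, Gnl3 and scramble siRNA, against 9152, 8795 and 9197 without these 2 libraries, and 0 in whole-cell siRNA comparisons. The coefficient of biological variation was 0.316 over 9 whole-cell libraries and 0.0589 over 7, and the cause was not tested. For Nmd3 against scramble siRNA on ER ribosomes 0 of the 10 genes passed in DESeq2, with library totals, in 1 fit of all 15 libraries and with the replicate block. Leaving out 1 library gave 5 to 7, 6 to 7 and 6 to 7 genes between fractions (Nmd3, Gnl3, scramble), 0 to 1 and 0 in the Nmd3 and Gnl3 interactions, 0 to 1, 1 to 2 and 0 to 2 on ER ribosomes (Nmd3 against scramble, Gnl3 against scramble, Nmd3 against Gnl3), and 0 to 1, 0 and 0 to 1 in whole-cell RNA; the 1 gene gained there and in the Nmd3 interaction was Hspa8, without Nmd3 whole-cell replicate 3. A lone sample in a group was assumed to vary like the others.

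Over all genes, leaving out a library moved the siRNA counts on ER ribosomes to between 23 and 366 (206 with all, Nmd3), 70 and 299 (472, Gnl3) and 159 and 703 (387, Nmd3 against Gnl3), and in whole-cell RNA to between 8 and 1024 (29), 17 and 66 (142) and 7 and 983 (37), and the Nmd3 interaction to between 0 and 304 (0). Without the filter 407, 586, 115 and 122 passed for Nmd3 against scramble and against Gnl3 on ER ribosomes and in whole-cell RNA, and 14 and 1 in the Nmd3 and Gnl3 interactions; a fit of the compared libraries alone gave 1 in the Gnl3 interaction and DESeq2 and library totals 2 and 1 in that of Nmd3. One fit of all 15 libraries gave 57 for Nmd3 against Gnl3 siRNA in whole-cell RNA. With library totals Nmd3 against Gnl3 siRNA on ER ribosomes split into 145 higher and 272 lower, against 174 and 213. Deviations of same-numbered replicates of different siRNAs correlated at -0.05 to 0.04. Fractions of 1 lysate, paired by design, gave -0.03 to 0.02, so this measure cannot show whether the numbers pair libraries. The replicate block gave 126, 258 and 63 calls for Nmd3 and Gnl3 on ER ribosomes and Nmd3 against Gnl3 in whole-cell RNA. In the Nmd3 interaction it gave 1. Of the 10 genes it lost Hspb1 (Nmd3) and Hspe1 (Gnl3) on ER ribosomes and changed no other call. No alternative changed the call or direction of a ratio. Hspa1a, at 87 to 292 counts, is the gene whose depth limits the precision most.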
